A study of Mus musculus with 4 samples.

Results

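Transcripts of 10 tetraspanins of lymphocytes were examined in quiescent follicular B cells of wild-type (WT) and Ets1-/- mice. The genes were chosen by name as Cd9, Cd37, Cd53, Cd63, Cd82, Cd151, Tspan3, Tspan13, Tspan31 and Tspan32, and all 10 were found among the 23305 genes of the files. The cells had been sorted from the spleens of female mice as B220+ CD23-high CD21-low cells that lacked CD80 and switched immunoglobulin, and RNA was sequenced from 2 biological replicates per genotype. WT mice were C57BL/6, whereas Ets1-/- mice were C57BL/6 x 129Sv, so strain and genotype cannot be told apart in the 4 libraries. Loss of Ets1 affected the whole animal and not B cells alone, and neither the age of these mice nor the number of animals per sample is given in the sources used here.

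Tetraspanins are small membrane proteins that cross the membrane repeatedly and gather integrins, immune receptors and proteases into tetraspanin-enriched microdomains. In B cells they hold receptor complexes in place on the surface, associate with MHC class II molecules and steer adhesion, and some mark endosomes and the vesicles released from them. Ets1, a transcription factor abundant in B cells, binds DNA at sites built on the letters GGAA.

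Expression was given as FPKM, the sequenced fragments of a gene divided by its length and by the size of the library, which is a level per length and can be compared between genes. Read counts were not part of the files analysed here, and the steps between low values gave relative depths from 0.850 to 1.71, with WT replicate 1 as 1. The whole-gene FPKM of Ets1 was 231 and 275 in WT and 229 and 229.8 in Ets1-/- B cells, and it does not show which exons were read, so it did not check the genotype labels. According to the paper, total transcription of Ets1 was unreduced in Ets1-/- B cells, while that of the targeted exons was reduced or absent. Genotypes were compared with limma on log2(FPKM + 1), which gave a log2 fold change with its standard error (SE) for the 10949 genes whose FPKM averaged 1 or more in WT or in Ets1-/- B cells. Genes counted as called where expression differed by 2-fold or more and p, adjusted over all 10949 genes by Benjamini and Hochberg (BH), was 0.05 or less. By this rule 186 genes, or 1.70%, were called, 96 (0.877%) higher and 90 (0.822%) lower in Ets1-/- B cells. In bulk RNA, fewer cells of a type and less RNA per cell cannot be told apart.

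The sort was reflected in the B cell markers, of which Cd79a (1923 and 2051 FPKM in WT) was the highest, and 0 of 9 were called. The 9 markers summed to 6728 and 6591 FPKM in WT and to 5751 and 6679 FPKM in Ets1-/- B cells. Neutrophil markers, of which S100a9 was the highest in WT, summed to 117 and 97.2 FPKM in WT, against 2573 in Ets1-/- replicate 1 and 706 in replicate 2. Of these markers 3 of 10, namely Ngp, Camp and Ltf, were called higher, against 0.877% of all genes. Erythroid markers, led by Hbb-b1, summed to 6.86 and 5.33 FPKM in WT and to 89.5 and 28.7 FPKM in Ets1-/- B cells, with 0 of 4 tested genes called. Both lists were thus highest in Ets1-/- replicate 1.

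The regions upstream of 4 members are shown because Ets1, the missing factor, acts through such sites. They are from RefSeq on build GRCm38.p6 and hold the 250 bases before the annotated start, written 5′ to 3′ in the direction of transcription. Cd37 and Cd53 are the members with the highest WT levels, and Tspan32 was chosen for the most matches to the motifs in a window. Tspan3 had the largest difference between genotypes among members whose annotated start also lies in a transcript of the mm9 build. Capitals mark CCGGAA and AGGAAG on either strand, which read TTCCGG and CTTCCT on the other. The pair may overlap at their ends, but a single GGAA cannot belong to both.
Cd37 (chr7:45238840-45239089, minus strand): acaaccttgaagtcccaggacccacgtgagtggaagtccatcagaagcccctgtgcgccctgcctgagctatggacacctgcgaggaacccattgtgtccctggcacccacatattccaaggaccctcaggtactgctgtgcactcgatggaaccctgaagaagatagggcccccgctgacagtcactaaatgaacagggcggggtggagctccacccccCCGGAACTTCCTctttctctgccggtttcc
Cd53 (chr3:106790150-106790399, minus strand): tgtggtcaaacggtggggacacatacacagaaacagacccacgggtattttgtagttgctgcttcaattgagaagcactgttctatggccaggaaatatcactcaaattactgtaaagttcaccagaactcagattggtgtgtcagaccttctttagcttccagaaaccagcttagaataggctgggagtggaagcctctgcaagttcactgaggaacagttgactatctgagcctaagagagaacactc
Tspan32 (chr7:143004796-143005045, plus strand): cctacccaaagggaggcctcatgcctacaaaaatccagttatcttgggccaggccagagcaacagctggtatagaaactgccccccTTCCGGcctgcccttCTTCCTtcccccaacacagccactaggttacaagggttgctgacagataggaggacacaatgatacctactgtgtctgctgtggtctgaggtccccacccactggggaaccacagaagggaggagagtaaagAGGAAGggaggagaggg
Tspan3 (chr9:56161071-56161320, minus strand): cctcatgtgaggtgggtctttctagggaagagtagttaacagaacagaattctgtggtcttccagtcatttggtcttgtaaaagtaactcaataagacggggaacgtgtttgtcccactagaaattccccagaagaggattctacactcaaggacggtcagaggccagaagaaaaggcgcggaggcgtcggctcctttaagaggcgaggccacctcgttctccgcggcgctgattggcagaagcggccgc
In Cd37 the match to CCGGAA began 30 bases before the start and ran into a match to AGGAAG on the opposite strand, which began 24 bases before it. Tspan32 had matches beginning 164, 149 and 17 bases before the start, whereas the windows of Cd53 and Tspan3 held neither motif. Both of these windows do hold the letters GGAA outside the motifs searched.

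All 10 members had an entry, with 14 windows among them. CCGGAA was found in 3 of the 14 windows (21.4%), those of Cd9, Cd37 and Tspan32, and in 12.0% of 32851 windows of all genes. AGGAAG was found in 7 of the 14 (50.0%), which belonged to Cd9, Cd37, Cd63, Cd82, Tspan31 and Tspan32, and in 29.5% of all windows. Several of the 14 windows belonged to Cd82, more than 1 of them with AGGAAG. The window of Cd63 was counted although its annotated start was not found in a transcript of the mm9 build. Matching letters do not show binding, and windows without them say nothing of sites elsewhere. The members whose windows held both motifs, Cd9, Cd37 and Tspan32, had log2 fold changes of -0.12, 0.06 and -0.36, and none of these was called.

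WT follicular B cells expressed the members over a wide range, led by Cd37. Summed over 30 tetraspanin genes looked up by name, the 10 members made up 96.6% of the FPKM in both WT libraries and 96.6% and 96.4% in the Ets1-/- libraries. Cd37 alone made up 63.5% and 62.4% in WT, and 65.1% and 68.1% in Ets1-/- B cells. In WT the order was Cd37, Cd53, Tspan32, Cd82, Tspan13, Tspan31, Cd9, Cd151, Tspan3 and Cd63. Replicates of neighbours in this order did not overlap, except for Cd151 and Tspan3. In Ets1-/- B cells Tspan3 stood ahead of Cd9 and Cd151, and the replicates of Tspan32 and Cd82, of Tspan3 and Cd9, and of Cd151 and Cd63 overlapped.

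**Figure D1:**
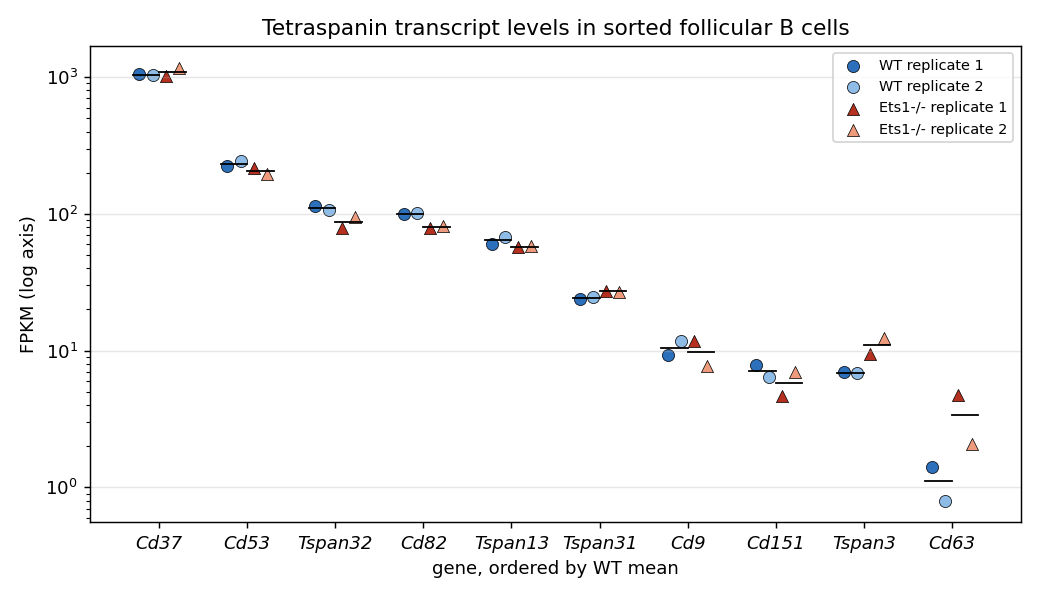
FPKM (log axis) of the 10 tetraspanins in each of the 4 libraries, with circles for WT, triangles for Ets1-/- and short black lines for the mean of each genotype. Cd37 sits between 1013 and 1175 FPKM in the 4 libraries, and Cd63, the lowest member, lies between 0.800 and 4.74 FPKM.

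None of the members was called changed in Ets1-/- B cells, 0 of 10 against 1.70% of all genes tested. At an unadjusted p under 0.05 from limma there were 2 of 10, Cd63 and Tspan3, against 13.3% of all genes. Both were higher in Ets1-/- B cells, as were 6.39% of all genes at this p, while 0 of 10 members and 6.95% of all genes were lower. An absolute log2 fold change of 1 or more was reached by 1 of 10 members, Cd63, and by 4.68% of all genes. The genotypes did not overlap for 7 of 10 members, 3 higher (Cd63, Tspan3 and Tspan31) and 4 lower (Cd53, Cd82, Tspan13 and Tspan32) in Ets1-/- B cells, where 41.6% of all genes did not overlap, 19.4% higher and 22.2% lower. The median log2 fold change was -0.14 over the members and -0.02 over all genes tested. With the smallest SE among the members being 0.13, small changes could not be detected, and the 95% intervals below give the sizes that the libraries allow.

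Cd37, a tetraspanin of mature B cells that links integrins to survival signals, was the highest member. It had 1049.8 and 1038 FPKM in WT and 1013 and 1175 FPKM in Ets1-/- B cells. The Ets1-/- replicates lay on either side of the WT replicates. Its log2 fold change was 0.06 (SE 0.20, 95% interval from -0.46 to 0.59, adjusted p = 0.967, limma, BH), and its sign turned to -0.01 after quantile normalization and to -0.04 without Ets1-/- replicate 2. Only 133 of the genes tested had a higher WT mean. On mm9 Cd37 lies on chromosome 7 from 52489002 to 52494485 on the minus strand.

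Cd53, found on most leukocytes, where it supports CD45 and L-selectin at the surface, was the next in level. Its FPKM was 224 and 242 in WT and 218 and 197 in Ets1-/- B cells, so that both Ets1-/- values were below both WT values. The gap between the nearest libraries was smaller than the spread within either genotype. The log2 fold change of Cd53 was -0.17 (SE 0.16, 95% interval from -0.58 to 0.24, adjusted p = 0.789, limma, BH). Cd37 exceeded Cd53 by 4.68 and 4.28 times in the WT libraries and by 4.64 and 5.97 times in the Ets1-/- libraries. Cd53 lies on chromosome 3 from 106561779 to 106593067 on the minus strand.

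Tspan32, a tetraspanin of blood cells that restrains T cell proliferation, and Cd82, known as a suppressor of metastasis that binds integrins, were close to each other in level. Tspan32 had 114 and 107 FPKM in WT and 78.6 and 94.9 FPKM in Ets1-/- B cells. Cd82 had 99.2 and 101 FPKM in WT and 79.4 and 81.7 FPKM in Ets1-/- B cells. In both genes each Ets1-/- library was below each WT library, and Cd82 had the narrower replicates. The WT mean was 1.28 times the Ets1-/- mean for Tspan32 and 1.24 times for Cd82. The log2 fold change was -0.36 for Tspan32 (SE 0.16, 95% interval from -0.77 to 0.06, adjusted p = 0.463, limma, BH). For Cd82 it was -0.31 (SE 0.14, 95% interval from -0.66 to 0.04, adjusted p = 0.436, limma, BH). Both kept a negative value in all 13 alternative fits, from -0.49 to -0.22 for Tspan32 and from -0.35 to -0.29 for Cd82. Tspan32 lies on chromosome 7 from 150190951 to 150205549 on the plus strand and Cd82 on chromosome 2 from 93259268 to 93303297 on the minus strand.

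Tspan13 and Tspan31, both widely expressed, are less studied in B cells. Tspan13 had 60.6 and 67.2 FPKM in WT and 57.0 and 57.8 FPKM in Ets1-/- B cells, a log2 fold change of -0.15 (SE 0.14, 95% interval from -0.51 to 0.21, adjusted p = 0.781, limma, BH). Tspan31 had 23.8 and 24.6 FPKM in WT and 27.4 and 26.8 FPKM in Ets1-/- B cells, a log2 fold change of 0.16 (SE 0.13, 95% interval from -0.17 to 0.49, adjusted p = 0.742, limma, BH). The genotypes did not overlap for either gene, but the WT replicates of Tspan13 lay further apart than the nearest libraries of the genotypes did, and both intervals include 0. The end of Tspan31 shares 604 bases with Cdk4, the cell cycle kinase, on the opposite strand (80.4 FPKM in WT and 88.9 FPKM in Ets1-/- B cells, means of 2), and whether reads were counted by strand is not given in the sources used here. Tspan13 lies on chromosome 12 from 36741144 to 36769087 and Tspan31 on chromosome 10 from 126504373 to 126507317, both on the minus strand.

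Cd9, which in the mouse spleen marks marginal zone, B-1 and plasma cells more than follicular B cells, was low. Its values were 9.31 and 11.7 FPKM in WT and 11.7 and 7.70 FPKM in Ets1-/- B cells, and the genotypes overlapped. Its log2 fold change was -0.12 (SE 0.23, 95% interval from -0.72 to 0.48, adjusted p = 0.918, limma, BH), and the sign turned to 0.03 without WT replicate 2 and to 0.15 without Ets1-/- replicate 2. Of the lists of cells that carry Cd9, marginal zone markers (6 genes) summed to 203 and 239 FPKM in WT and to 161 and 99.5 FPKM in Ets1-/- B cells, with 0 of 6 called. Their highest gene, Cr2, which encodes the CD21 of the sort, had 102 and 116 FPKM in WT and 65.1 and 30.0 FPKM in Ets1-/- B cells (log2 fold change -1.28, adjusted p = 0.216, limma, BH), and it was called, at -1.82, without Ets1-/- replicate 1. B-1 markers (5 genes, Cd5 the highest) summed to 14.8 and 15.1 FPKM in WT and to 26.4 and 24.7 FPKM in Ets1-/- B cells, and plasma cell markers (8 genes, Mzb1 the highest) to 349 and 410.0 FPKM and to 417 and 449.8 FPKM, with 0 of 5 and 0 of 7 tested genes called. Without overlap 3 of 5 B-1 markers were higher and 0 lower, against 19.4% and 22.2% of all genes. Cd5 itself overlapped, with 7.93 and 6.69 FPKM in WT and 6.05 and 6.92 FPKM in Ets1-/- B cells. Itgam, also listed among the integrins, took 2.37 and 1.56 FPKM of the B-1 sum in WT and 6.78 and 6.01 FPKM in Ets1-/- B cells. Of the 7 plasma cell markers tested 4 were higher and 2 were lower in Ets1-/- B cells without overlap, against 19.4% and 22.2% of all genes. Prdm1, named after its values were seen, was among the 4 and was tested only through its Ets1-/- values. It averaged 0.626 FPKM in WT and 1.58 FPKM in Ets1-/- B cells. Mzb1 alone took 175 and 215 FPKM of the sum in WT and 272 and 290 FPKM in Ets1-/- B cells. The part of these cells in the level of Cd9 was not tested. Platelet markers (9 genes, Gp1ba the highest), which bear on both Cd9 and Tspan32, summed to no more than 3.60 FPKM in any library, and 0 of 1 tested was called. Cd9 lies on chromosome 6 from 125410284 to 125444809 on the minus strand.

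Cd151, the partner of laminin-binding integrins, was at 7.83 and 6.43 FPKM in WT and at 4.70 and 6.97 FPKM in Ets1-/- B cells. The genotypes overlapped, and the log2 fold change was -0.27 (SE 0.22, 95% interval from -0.82 to 0.29, adjusted p = 0.740, limma, BH). It was -0.02 without Ets1-/- replicate 1 and -0.51 without Ets1-/- replicate 2. Cd151 lies on chromosome 7 from 148653261 to 148657378 on the plus strand, just before Tspan4, which reached only 0.894 and 0.510 FPKM in WT and 0.536 and 0.583 FPKM in Ets1-/- B cells.

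Cd63, a tetraspanin of late endosomes, lysosomes and secreted vesicles, had the largest difference of the members at the lowest level. It had 1.42 and 0.800 FPKM in WT and 4.74 and 2.08 FPKM in Ets1-/- B cells. Both Ets1-/- replicates were above both WT replicates, and replicate 1 was 2.28 times replicate 2. The mean in Ets1-/- B cells was 3.07 times the WT mean. On the log2(FPKM + 1) scale, which understates the change of low genes, the log2 fold change was 1.01 (SE 0.34, 95% interval from 0.13 to 1.89, unadjusted p = 0.0316, adjusted p = 0.288, limma, BH). It ranged from 0.56 without Ets1-/- replicate 1 to 1.46 without Ets1-/- replicate 2, and was 1.47 with a pseudocount of 0.1.

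Cd63 and the summed neutrophil and erythroid markers were each lowest in WT replicate 2 and highest in Ets1-/- replicate 1. With 2 libraries per genotype, such a shared order largely repeats the comparison of genotypes. Cd63 is also known from the granules of neutrophils. Macrophage markers (10 genes, Cd68 the highest in WT) summed to 24.7 and 14.7 FPKM in WT and to 50.4 and 50.6 FPKM in Ets1-/- B cells, and Emr1 made up 23.5 and 37.2 FPKM of the latter. Emr1 was the 1 of 7 tested genes that was called, against 0.877% of all genes called higher. Without overlap 1 of 7, Emr1, was higher and 0 were lower, against 19.4% and 22.2% of all genes. Dendritic cell markers (8 genes, Flt3 the highest in WT) summed to 7.47 and 5.92 FPKM in WT and to 11.3 and 11.3 FPKM in Ets1-/- B cells. Of 4 tested genes 1, Cd209a, was called higher, against 0.877% of all genes. Cd209a averaged 0.733 FPKM in WT and 3.44 FPKM in Ets1-/- B cells, so only its Ets1-/- values brought it into the test. Its call is no separate support. The part of other cells in the level of Cd63 was not tested. Cd63 lies on chromosome 10 from 128345975 to 128349872 on the plus strand, and like Cd9 it has a pseudogene in the annotation without an entry in the files, so reads shared with that copy would be uncertain.

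Tspan3, a widely expressed tetraspanin, was the other member with an unadjusted p under 0.05. Its FPKM was 6.93 and 6.86 in WT and 9.45 and 12.4 in Ets1-/- B cells. The WT replicates were nearly equal, and both Ets1-/- replicates lay above them. The ratio of means was 1.59 and the log2 fold change 0.59 (SE 0.17, 95% interval from 0.14 to 1.03, unadjusted p = 0.0193, adjusted p = 0.222, limma, BH). It was 0.40 without Ets1-/- replicate 2 and 0.77 without Ets1-/- replicate 1. Tspan3 was higher in Ets1-/- replicate 2 than in replicate 1. Tspan3 lies on chromosome 9 from 55983692 to 56008877 on the minus strand, 23.4 Mb from Ets1.

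**Figure D2:**
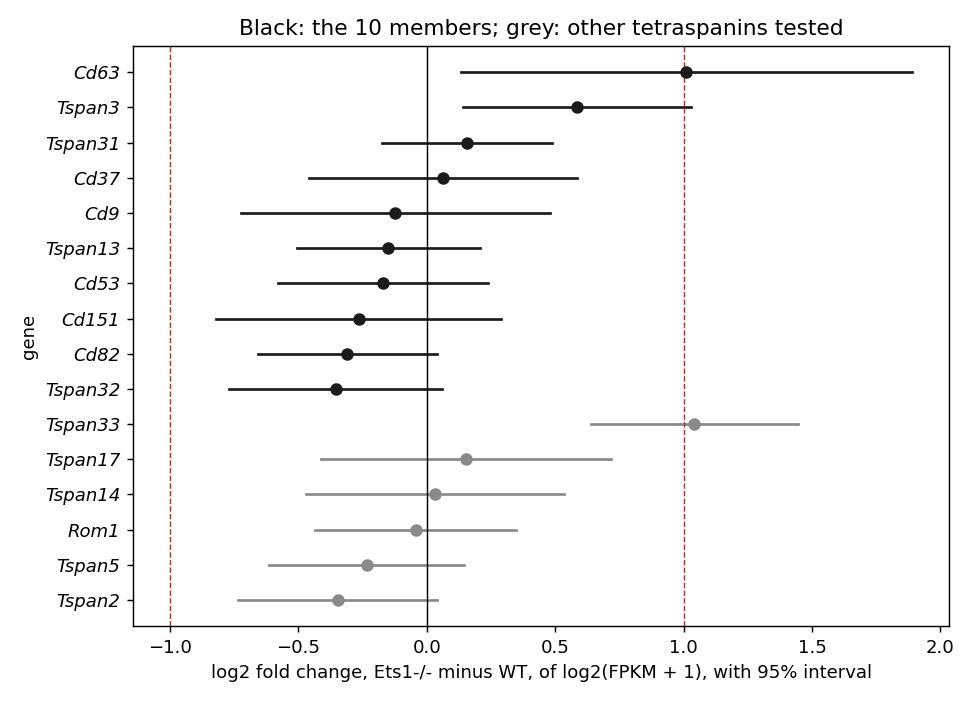
Difference of log2(FPKM + 1), Ets1-/- minus WT (log2 fold change), for the 10 members (black) and the 6 other tetraspanins tested (grey), with lines for the 95% interval of the limma fit and dashed lines at a 2-fold change. The intervals of Cd63, Tspan3 and Tspan33 leave out 0, and none of the 16 genes was called after adjustment over 10949 genes.

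**Figure D3:**
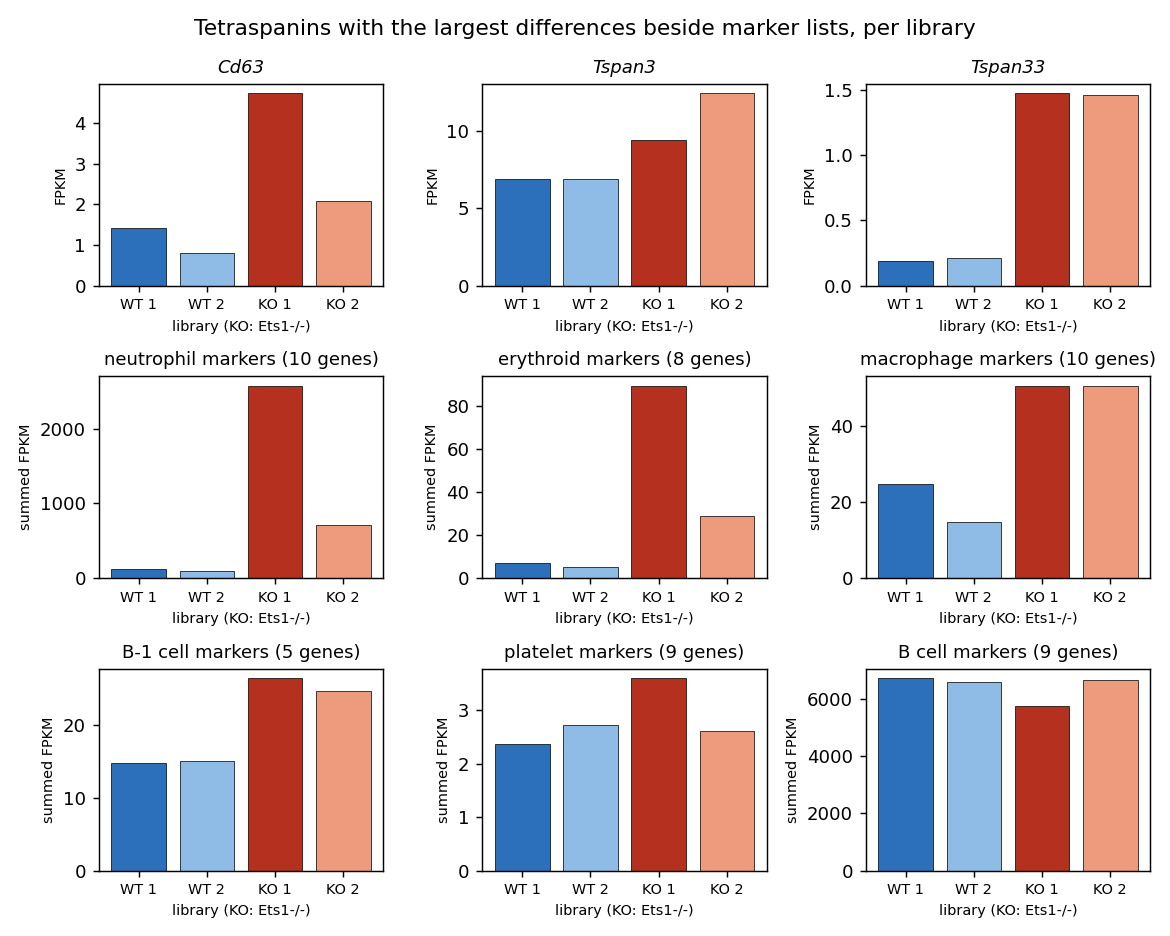
FPKM of Cd63, Tspan3 and Tspan33 and the summed FPKM of 6 marker lists in the 4 libraries (KO, Ets1-/-), each panel with its own linear axis from 0. Cd63 and the neutrophil and erythroid sums are highest in Ets1-/- replicate 1, Tspan3 is highest in Ets1-/- replicate 2, and Tspan33 is even between them.

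Of the 20 other tetraspanins looked up, 6 passed the filter on low values and 0 of 6 were called, with 1, Tspan33, at an unadjusted p under 0.05 from limma. Tspan33, which guides the protease ADAM10 and is known from activated B cells, had 0.187 and 0.214 FPKM in WT and 1.48 and 1.47 FPKM in Ets1-/- B cells. It passed the filter only through its Ets1-/- values, and so was left out of the fit where both genotypes had to average 1. The replicates were narrow and far apart between genotypes, with a ratio of means of 7.34. Its log2 fold change of 1.04 (SE 0.16, 95% interval from 0.64 to 1.44) had adjusted p = 0.0554 (limma, BH), and Tspan33 was not called. This p is no separate support, as the higher genotype brought the gene into the test. Over 12 alternative fits adjusted p (limma, BH) ranged from 0.00964 to 0.190, with Tspan33 called in 3 of them, and with any 1 library left out it was between 0.104 and 0.190. Tspan33 lies on chromosome 6 from 29644222 to 29668559 on the plus strand.

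Of the other ADAM10-guiding tetraspanins 3 were tested, and their difference from Tspan33 was not. Tspan14 had 35.1 and 32.1 FPKM in WT and 29.1 and 40.4 FPKM in Ets1-/- B cells, Tspan5 had 4.40 and 4.98 against 3.67 and 3.99 FPKM, and Tspan17 had 5.21 and 7.19 against 8.08 and 5.91 FPKM. Their log2 fold changes were 0.03, -0.23 and 0.15, with SEs of 0.20, 0.15 and 0.22. With a library left out the sign turned for Tspan14 (from -0.20 to 0.26) and Tspan17 (from -0.05 to 0.35), and not for Tspan5. Tspan2 (4.42 and 4.82 FPKM in WT, 3.69 and 3.16 FPKM in Ets1-/- B cells) and Rom1, known from photoreceptor discs (5.18 and 5.24 FPKM, and 4.58 and 5.51 FPKM), had log2 fold changes of -0.35 and -0.04, the latter turning to 0.07 without Ets1-/- replicate 1. The remaining 14 of the 20 stayed under a mean of 1 FPKM in both genotypes, and Tspan7 and Tspan11 were listed at 0 in every library.

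Genes of proteins that work with tetraspanins were compared from lists chosen by function. Of 48 such genes 41 were tested and 0 were called, against 1.70% of all genes, and 8 of 41 had an unadjusted p under 0.05 from limma, against 13.3% of all genes. The median log2 fold change of the 41 genes was 0.02. MHC class II genes, whose products travel with tetraspanins in antigen-presenting cells, had 0 of 10 called and a median log2 fold change of 0.21, and 7 of 10 were higher without overlap, against 19.4% of all genes. Their highest gene, Cd74, the invariant chain, had 11572 and 12157 FPKM in WT and 12717 and 14863 FPKM in Ets1-/- B cells. H2-Oa, a regulator of peptide loading, had the largest log2 fold change, 0.34, with 375 and 373 FPKM in WT and 451 and 494 FPKM in Ets1-/- B cells. Quantile normalization turned the sign of H2-Aa, H2-Ab1 and H2-Eb1, named here after their values were seen, whose log2 fold changes then were -0.12, -0.11 and -0.03, so no direction is given for the group.

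Integrins, the adhesion receptors bound by Cd9, Cd37, Cd82 and Cd151, had 0 of 10 tested genes called and 5 at an unadjusted p under 0.05, against 13.3% of all genes. The highest was Itgb7, a homing integrin chain, with 136 and 127 FPKM in WT and 145 and 179.7 FPKM in Ets1-/- B cells. Itgam, a chain of myeloid and B-1 cells, had the largest log2 fold change, 1.33 (adjusted p = 0.0507, limma, BH), from 2.37 and 1.56 FPKM in WT and 6.78 and 6.01 FPKM in Ets1-/- B cells. Itga6, the laminin receptor chain that pairs with Cd151, was chosen after its values were seen. It had 5.24 and 4.98 FPKM in WT and 1.37 and 2.26 FPKM in Ets1-/- B cells, a log2 fold change of -1.13 (SE 0.20, adjusted p = 0.0772, limma, BH). Itga6 and Itgam thus had opposite signs, and the calls of both depended on the fit, as given with the alternatives.

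Of Adam10, its relative Adam17 and their substrates 0 of 6 genes were called. Fcer2a, the CD23 of the sort and a substrate of ADAM10, had 664 and 544 FPKM in WT and 488 and 560 FPKM in Ets1-/- B cells. Notch1, the receptor cut during Notch signaling, had the largest log2 fold change of the group, -0.51, with 5.36 and 4.69 FPKM in WT and 2.91 and 3.53 FPKM in Ets1-/- B cells (adjusted p = 0.247, limma, BH). Among other partners 0 of 3 tested genes were called. Igsf8, which binds tetraspanins directly, had 8.54 and 7.52 FPKM in WT and 7.45 and 8.88 FPKM in Ets1-/- B cells. Epcam, an adhesion protein, had the largest log2 fold change, -0.84 (adjusted p = 0.109, limma, BH). It had 1.54 and 1.96 FPKM in WT and 0.470 and 0.606 FPKM in Ets1-/- B cells, and passed the filter on low values only through WT. Its p, also counted among the partner genes with an unadjusted p under 0.05, is thus no separate support.

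Genes of vesicle formation, the route by which Cd63 leaves the cell, had 0 of 12 tested genes called and a median log2 fold change of -0.01. Lamp1, a lysosomal membrane protein, was the highest with 93.8 and 87.9 FPKM in WT and 90.2 and 119.8 FPKM in Ets1-/- B cells. Sdcbp, the syntenin that loads Cd63 into vesicles, had 57.1 and 61.9 FPKM in WT and 46.4 and 45.5 FPKM in Ets1-/- B cells. The difference, a log2 fold change of -0.36 (adjusted p = 0.342, limma, BH) was the largest of the list and had the opposite sign to that of Cd63.

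**Figure D4:**
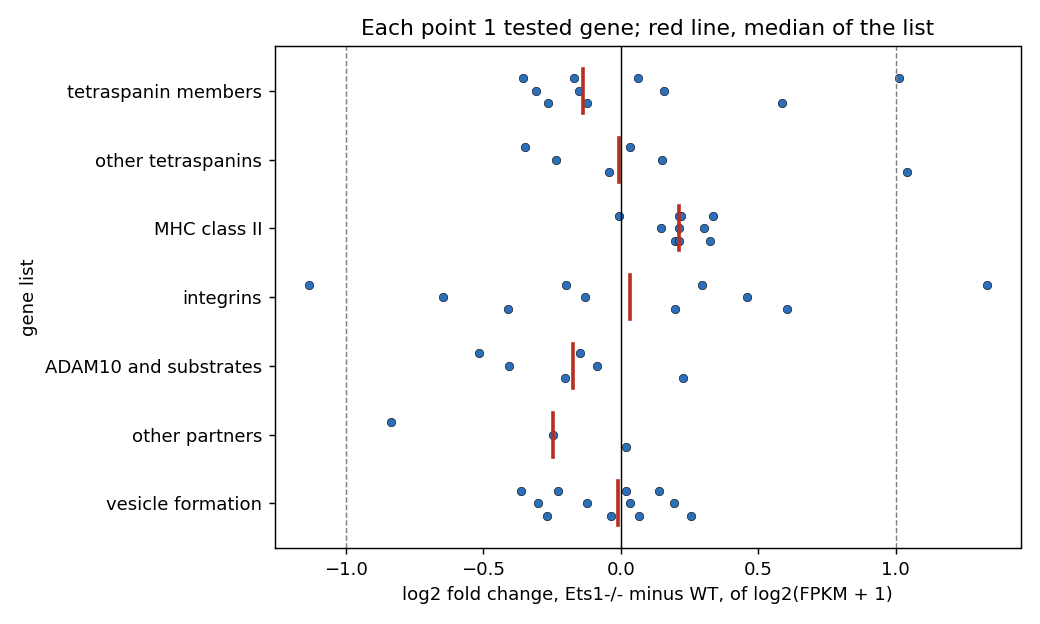
Difference of log2(FPKM + 1), Ets1-/- minus WT (log2 fold change), of each tested gene of the tetraspanins and of 5 partner lists, with a red line at the median of each list and dashed lines at a 2-fold change. Most genes lie within the dashed lines, with Itga6, Itgam, Cd63 and Tspan33 outside them, and none was called.

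Of the remaining marker lists, T cell markers (10 genes, Cd3g the highest) summed to 101 and 86.5 FPKM in WT and to 81.9 and 95.2 FPKM in Ets1-/- B cells. Thy1 was called lower (1 of 10, against 0.822% of all genes). Without overlap 4 of 10 were lower and 1 of 10 higher, against 22.2% and 19.4% of all genes. NK cell markers (8 genes, Nkg7 the highest) summed to 47.3 and 32.1 FPKM in WT and to 22.4 and 33.0 FPKM in Ets1-/- B cells, with 0 of 8 called. The NK cell sum overlapped between the genotypes, as did Nkg7 (15.6 and 13.2 FPKM in WT, 15.0 and 18.6 FPKM in Ets1-/- B cells). Without overlap 5 of 8 NK cell markers were lower and 1 of 8 higher, against 22.2% and 19.4% of all genes. An unadjusted p under 0.05 from limma was reached by 4 of 8, against 13.3% of all genes. Ncr1, Klrb1c and Prf1, named after their values were seen, passed the filter on low values only through WT, and Eomes only through its Ets1-/- values. The counts of NK cell markers are therefore no separate support. Both cell types carry Tspan32 and Cd53, the latter found on most leukocytes, and neither gene was called. The part of these cells in the level of Tspan32 and Cd53 was not tested.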

How the data were processed

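RNA-seq of 2 WT and 2 Ets1-/- libraries was analysed. The authors aligned reads to mm9 with TopHat2 2.0.13, per the labels, estimated expression with Cuffdiff and deposited 1 FPKM value per gene and library, already divided by gene length and mapped reads; the annotation and any further scaling between libraries are not given in the sources used here. Of 23309 entries 4 with repeated symbols were left out. The package limma 3.58.1 (R 4.3.3) fitted linear models on log2(FPKM + 1) (eBayes with a trend, 2 residual and 3.10 prior degrees of freedom) over 10949 genes, and the scripts were tested on simulated data. Summaries used Python 3.11.15, numpy 2.4.6, pandas 2.3.3 and matplotlib 3.10.9. Positions came from GENCODE M1 (mm9) and upstream sequences from RefSeq (GRCm38.p6). Means are over 2 replicates, and no exact test was run, since 2 against 2 cannot reach p under 0.05. Named were Ets1, the members, the other tetraspanins tested or at 0, the called, highest and most different gene of each partner list, and the called and highest genes of each marker list. Cdk4 and Tspan4 were named as neighbours of members, and genes named after their values were seen are said to be so. The members and lists were chosen with earlier results of these data known. Alternatives covered the pseudocount, filter, scaling, replicate block, variance estimation, fold minimum and each replicate left out. The deviations of same-numbered replicates had a weak negative correlation across genes (-0.21). No pairing is described in the sources used here, so the numbers were not taken as pairs. A gene and the partner list that holds it are not reported here.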

Additional observations from a re-analysis of the deposited data

How the results depend on the processing

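The number of members called was 0 in every fit but the crossed pairing, while the number of all genes called was 75 without the filter on low values, 305 with robust variance estimation and between 130 and 144 with 1 library left out. Taking replicate numbers as a block, 266 genes (2.43%) were called, with 0 members, 0 other tetraspanins and 1 partner gene (Itgam). The crossed pairing as a block, chosen after seeing the data, gave 409 genes (3.74%), 1 member (Cd63, adjusted p = 0.0405 from limma), 1 other tetraspanin (Tspan33) and 2 partner genes. Tspan33 was the 1 other tetraspanin also called without the filter (adjusted p = 0.0307 from limma) and with robust variance estimation. Of the partner genes 1 (Itgam) was called where FPKM had to average 1 or more in both genotypes and 1 (Itgam) with upper-quartile scaling, and 2 (Itgam and Itga6) with robust variance estimation, while 0 were called with any library left out. Without the 2-fold minimum 190 genes passed, with 0 members. The causes were not tested. The sign was the same in all 13 alternative fits for 8 of the 10 members, and it turned for Cd9 and Cd37 as given in the report. Fits that leave out a library assume that the lone sample varies like the other genotype. The reads behind each value are unknown, so the precision of low genes such as Cd63 and Tspan33 rests on 2 replicates alone.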
